A study of Mus musculus with 77 samples.

Results

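The miRNAs described here are mmu-miR-338-3p, mmu-miR-338-5p, mmu-miR-219, mmu-miR-204 and mmu-miR-211 (written below without the species prefix), mature mouse miRNAs known from glia and pigmented epithelia. They were chosen by name, all 5 had a probe, and they are 5 of the 566 mouse miRNA probes measured. The study looked for molecules that mark microglia in contrast to immune and neural cells, and it counted miRNAs with the NanoString nCounter assay, in which each RNA molecule is tagged with a fluorescent barcode and counted without amplification. There were 36 miRNA libraries in 2 sets, all labelled as C57BL/6 mouse.

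The neural set had 12 libraries, 2 for each of 6 populations: microglia, adult oligodendrocytes, adult astrocytes, primary cortical neurons, primary hippocampal neurons and red pulp macrophages of the spleen. As only the oligodendrocytes and astrocytes are labelled adult and only the neurons primary, comparisons with neurons cannot tell cell type apart from age or preparation. The immune set had 24 libraries of 1 population each. It held adult microglia from 7 sites (brain, cortex, hippocampus, cerebellum, olfactory bulb, spinal cord and eye) and macrophages from 7 organs (spleen, liver, lung, kidney, gut, heart and muscle). It also held 4 CD11b/Ly6C populations (low and Hi for Ly6C, from spleen and bone marrow), 4 lymphocyte populations of the spleen (B cells, CD4 T cells, regulatory T cells and NK cells), dendritic cells of the spleen and blood neutrophils. No group carried a genetic change or a treatment according to the labels. The labels do not say how many animals a library held or whether libraries came from separate animals, so p-values measure the spread between these samples, which may be technical. In the immune set, that spread is between sites, organs or subsets, not between repeats of 1 population. The RNA is from sorted or cultured populations, and in such bulk samples fewer cells that hold a miRNA cannot be told apart from less of it in each cell.

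MicroRNAs are short RNAs that guide silencing complexes to messenger RNAs, mostly through a seed near their 5′ end. In the central nervous system miR-219 and miR-338 are known to rise as oligodendrocyte precursors mature, where they repress factors that hold the precursors back from making myelin. MiR-204 and its close relative miR-211 are known from pigment cells: miR-204 is abundant in retinal pigment epithelium, choroid plexus and other epithelia, and miR-211 in melanocytes.

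The mature sequences are shown because they define which probes share a target seed and which could be hard to tell apart. They are the RefSeq sequences (build GRCm38.p6), 5′ to 3′, with the seed (bases 2 to 8) in capitals.

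miR-338-3p: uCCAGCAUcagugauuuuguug

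miR-338-5p: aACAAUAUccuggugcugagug

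miR-219: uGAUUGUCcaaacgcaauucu

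miR-204: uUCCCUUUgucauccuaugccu

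miR-211: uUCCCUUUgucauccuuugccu

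The last 2 share their whole seed and differ at 1 of 22 bases, A17U (position counted from the 5′ end, miR-204 base first), so their probes target nearly the same sequence. The other 3 each have a seed that no other of the 1679 mature mouse miRNAs listed by RefSeq holds, whereas miR-7670-3p also has the seed of miR-204 and miR-211. The table gave the names miR-219, miR-204 and miR-211 without an arm. They were read as the 5p forms that carry these names today, miR-219a-5p, miR-204-5p and miR-211-5p.

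MiR-338-3p (chr11:120014781-120014802, minus strand) and miR-338-5p (chr11:120014816-120014837, minus strand) are the 2 arms of 1 precursor inside Aatk, a kinase gene. The precursor is shown because the arms were measured separately, with both arms in capitals.

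Mir338: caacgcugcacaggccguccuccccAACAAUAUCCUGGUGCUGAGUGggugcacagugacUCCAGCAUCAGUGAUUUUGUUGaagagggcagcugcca

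MiR-219 is encoded at 2 loci with the same mature sequence, Mir219a-1 (chr17:34025052-34025072, minus strand) and Mir219a-2 (chr2:29845689-29845709, minus strand, within the span of Cercam), and 1 probe cannot separate them. MiR-204 lies at chr19:22750610-22750631 (plus strand) within the channel gene Trpm3, and miR-211 at chr7:64205831-64205852 (plus strand) within its relative Trpm1.

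The deposited values are barcode counts scaled by the authors with 1 factor per library, and they are given below as values, with the count behind them where it matters. Recovered totals ran from 3699 to 20612 counts in the neural set and from 1741 to 75635 in the immune set, where 11 of 24 libraries had under 5000. Background was read from 33 probes for viral miRNAs that mouse cells lack, and the limit of each library was their mean plus 2 SD: 51.9 to 258.6 in the neural set and 2.38 to 38.0 in the immune set. Of the mouse miRNAs, 3.18% to 22.1% lay above the limit in a neural library and 10.6% to 32.7% in an immune library. One neural library stood apart: hippocampal neurons 1 had the lowest total (3699) and the highest limit (258.6), and over mouse miRNAs it correlated with its partner at r = 0.25, against 0.68 to 0.87 for the other 5 pairs.

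Of the 180 values of the 5 miRNAs, 57 were above the limit of their library. In the neural set, miR-338-3p was above it in 7 of 12 libraries, miR-204 in 6, miR-219 in 5, miR-338-5p in 1 and miR-211 in 0. For scale, 7.95% of mouse miRNAs were above the limit in at least as many neural libraries as miR-338-3p, 9.19% in as many as miR-204 and 11.5% in as many as miR-219. The immune counts were 13 of 24 for miR-338-3p, 8 each for miR-338-5p and miR-219, 6 for miR-204 and 3 for miR-211. Of all mouse miRNAs, 13.6% were above the limit in at least as many immune libraries as miR-338-3p, 22.8% in as many as miR-338-5p or miR-219, 28.6% in as many as miR-204 and 45.2% in as many as miR-211.

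**Figure D1:**
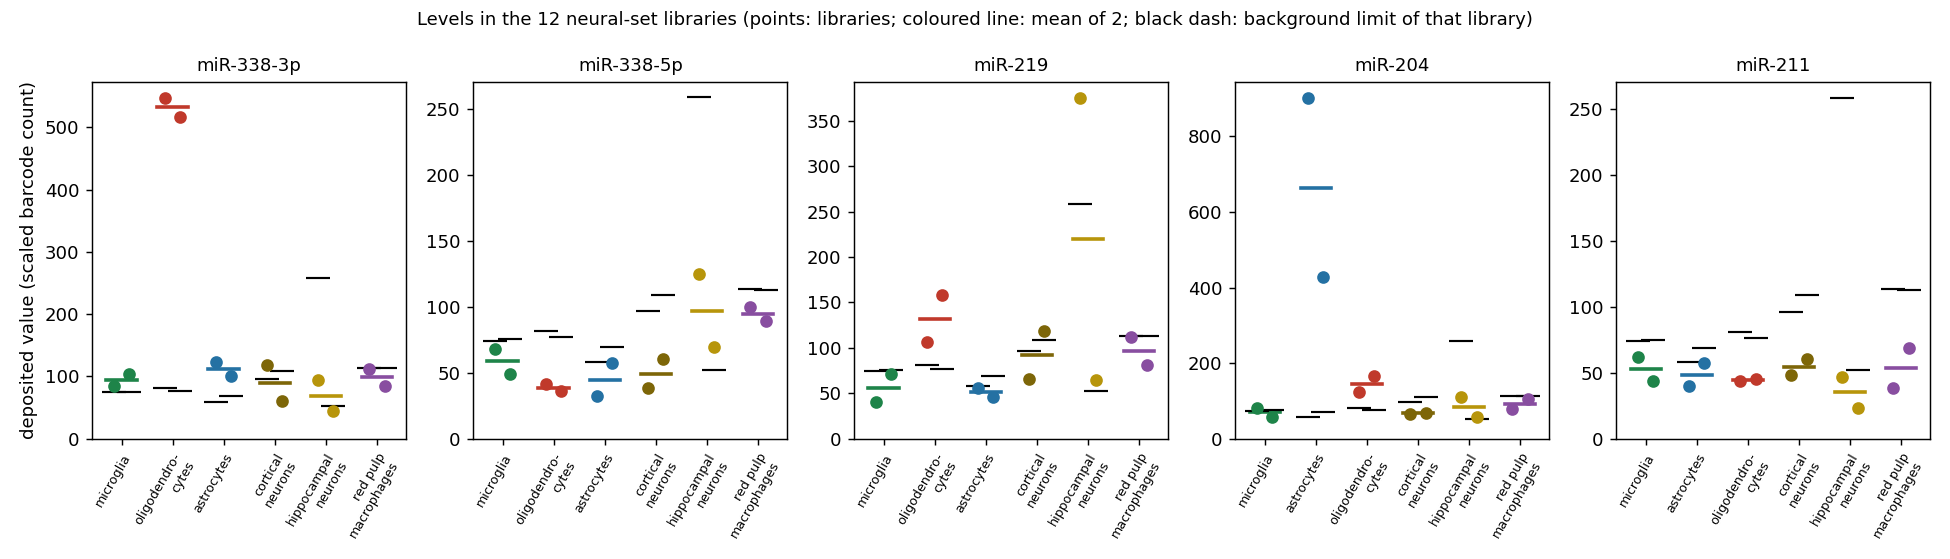
Deposited values (scaled barcode counts, linear axis from 0) of the 5 miRNAs in the 12 neural-set libraries. Points are libraries, coloured lines the mean of 2 and black dashes the background limit of each library. MiR-338-3p stands at 517 and 547 in oligodendrocytes with no other library above 123, and miR-204 at 428 and 901 in astrocytes with no other library above 165.

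MiR-338-3p was highest in the oligodendrocytes. It read 547 and 517 in the oligodendrocyte libraries (185 and 229 counts). In the same order of library number it read 123 and 100 in astrocytes, 118 and 60 in cortical neurons and 94 and 44 in hippocampal neurons. Both oligodendrocyte libraries were above all 10 others of the set, microglia (85 and 103) and red pulp macrophages (112 and 85) included, and miR-338-3p ranked 4 and 7 among the 566 mouse miRNAs there. It was the only miRNA of 566 (0.177%) with both oligodendrocyte libraries above their limits and above every other library.

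Over the model of the whole neural set (limma on log2(value + 10), Benjamini-Hochberg over 566 miRNAs), miR-338-3p was higher in oligodendrocytes than in the mean of astrocytes and both neuron types by 2.51 ± 0.43 (log2, SE; means 532 and 89.8; 95% interval 1.61 to 3.41; adjusted p = 0.00378). It was the only call in this comparison, 1 of 566 tested (0.177% called), where the median miRNA differed by -0.11 and 13 had an unadjusted p under 0.05. The pseudocount shrinks differences between low values, and most values of the other neural cells here were near background: with every value raised to at least its library's limit, the difference was 2.12. The call was lost when either oligodendrocyte library was left out (2.47 with adjusted p = 0.308 without library 1 and 2.55 with adjusted p = 0.219 without library 2), which leaves 1 library that is assumed to vary like the others. Without the shallow hippocampal library the difference was 2.67 (adjusted p = 2.41e-09).

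Below that level the other groups could not be ordered. Astrocytes, at a mean of 111.5, overlapped red pulp macrophages (98.5), and each further neighbour overlapped too, down to microglia (94.0), cortical neurons (89.0) and hippocampal neurons (69.0). Astrocytes were nonetheless above their limits in both libraries (limits 58.1 and 69.1), as were microglia (limits 74.2 and 75.1), while both red pulp libraries were below theirs. The astrocyte difference from the other neural cells, oligodendrocytes included, was -0.37 ± 0.43 (adjusted p = 0.742), and it changed sign under edgeR on the recovered counts (0.088).

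The other arm of the precursor, miR-338-5p, did not follow. It read 41 and 36 in oligodendrocytes (14 and 16 counts, limits 81.1 and 76.6), the lowest mean of the 6 groups at 38.5, against 32 and 57 in astrocytes, 38 and 60 in cortical neurons and 125 and 69 in hippocampal neurons. It passed a limit in hippocampal neurons 2 alone, at 69 against 51.9. The oligodendrocyte difference was -0.49 ± 0.40 (adjusted p = 1.0, interval -1.33 to 0.34), and values below the limit have no order. In oligodendrocytes, then, the 3p arm stood at 6.74 and 6.75 times its background limit and the 5p arm at 0.505 and 0.470 times. Probes of different sequence are not calibrated to each other, so no ratio between the arms is given.

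MiR-219, the miRNA most often named with miR-338 in myelinating cells, was above background in oligodendrocytes but was not set apart from neurons. Its values were 106 and 158 in oligodendrocytes (36 and 70 counts), both above the limits of 81.1 and 76.6. They were 56 and 46 in astrocytes, 66 and 119 in cortical neurons and 376 and 65 in hippocampal neurons, so the oligodendrocyte range lay inside the range of the neurons. The value of 376 came from 24 counts in the shallow hippocampal library, where miR-219 ranked 3 of 566, and its partner library read 65 with 28 counts.

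The oligodendrocyte difference for miR-219 was 0.47 ± 0.50 (means 132 and 121.3, adjusted p = 1.0), with a 95% interval of -0.57 to 1.51. The interval is for values with the pseudocount, which shrinks differences between low values. In the reference, miR-219 was under the limit in cortical neurons 1 (66 against 96.4) and in both astrocyte libraries. The interval therefore does not bound the rise in the RNA, and a rise above 1.51 on the log2 scale was not excluded. Leaving out hippocampal neurons 1 gave 0.86 (adjusted p = 0.256) and leaving out hippocampal neurons 2 gave 0.076, so that pair moved the estimate more than the oligodendrocytes did (0.74 without library 1 and 0.20 without library 2). In astrocytes miR-219 was below the limit in both libraries (means 51.0 and 148.3 in the other neural cells), with a difference of -1.13 ± 0.50 that missed the threshold (adjusted p = 0.479). It passed only without hippocampal neurons 2, at -1.52 (adjusted p = 0.000376).

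**Figure D2:**
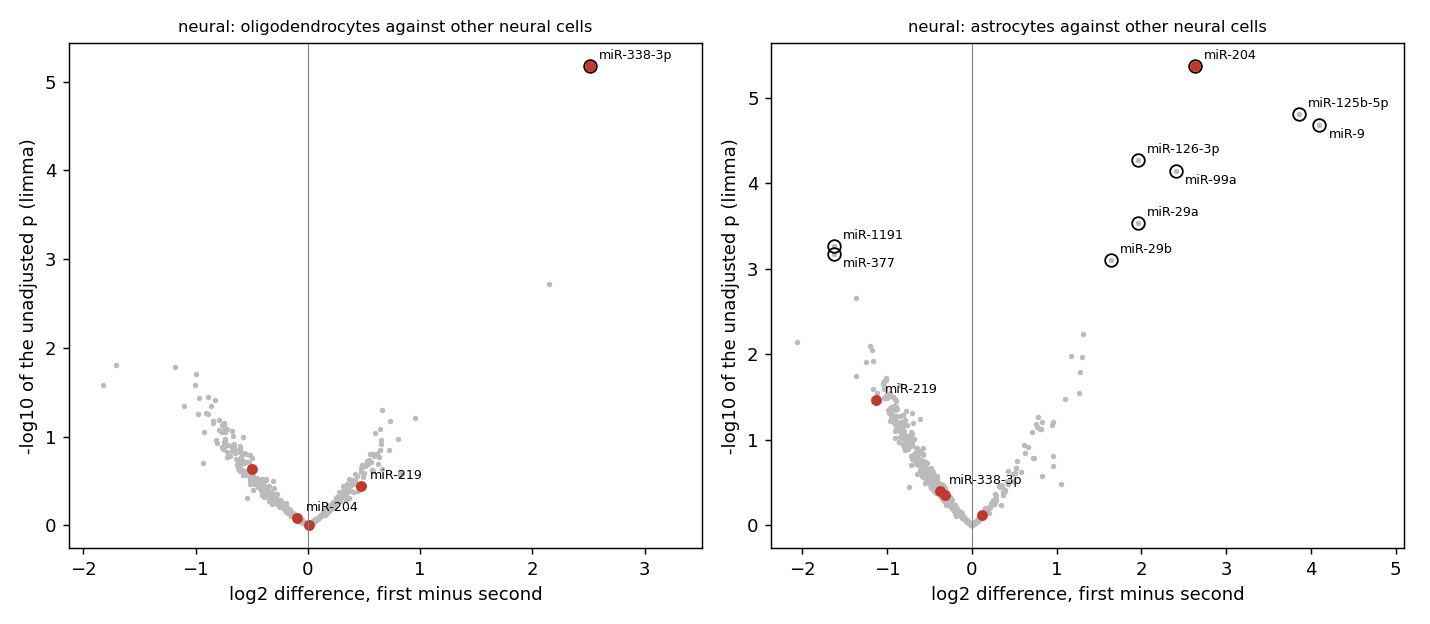
Differences (log2, horizontal axis) and unadjusted p (as -log10, vertical axis) of all 566 mouse miRNAs in the neural set, for oligodendrocytes (left) and astrocytes (right) against the other neural cells. Grey points are miRNAs, red points the 5 described here and black rings the calls at an adjusted p under 0.05; miR-338-3p is the only ring on the left and miR-204 one of 9 on the right.

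MiR-204 was highest in the astrocytes instead. It read 901 and 428 in astrocytes (453 and 158 counts), where it ranked 5 and 7 of 566, against 124 and 165 in oligodendrocytes, 66 and 67 in cortical neurons and 110 and 58 in hippocampal neurons. Both astrocyte libraries were above their limits and above all 10 others, which held for 5 of 566 miRNAs (0.883%). Astrocytes exceeded the other neural cells by 2.63 ± 0.44 (means 664.5 and 98.3; interval 1.72 to 3.54; limma adjusted p = 0.00242), 1 of 7 miRNAs called higher among 566 (1.24% called higher, 1.59% called in all). The median miRNA differed by -0.33 in this comparison, and 53 had an unadjusted p under 0.05.

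The 2 astrocyte libraries differed by more in this miRNA than those of any other pair (SD 334 around 664.5). Without astrocytes 1, the library at 901, the difference was 2.10 and lost the call (adjusted p = 0.387), and without astrocytes 2 it was 3.16 (adjusted p = 0.0127). Oligodendrocytes came second: 124 and 165 lay above both limits and above the red pulp macrophages (77 and 105), the next group, with no overlap. Cortical neurons were below their limits in both libraries, and hippocampal neurons passed theirs in library 2 only (58 against 51.9). As the reference of the oligodendrocyte comparison holds the astrocytes, that difference was -0.09 ± 0.44 (adjusted p = 1.0). It turned positive in 6 alternatives, among them quantile normalisation (0.37), edgeR (0.057), leaving out hippocampal neurons 1 (0.043) and leaving out astrocytes 1 (0.082).

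The miRNA whose pattern was most like that of miR-204 over the 12 neural libraries was miR-126-3p, an abundant miRNA of endothelial cells. Pearson's r of their log2 values was 0.92 among 123 candidate miRNAs, the next being miR-100 (0.73) and miR-150 (0.71); the 12 points are pairs from 6 populations and share library and depth. MiR-126-3p read 394 and 255 in astrocytes, 124 and 133 in oligodendrocytes and at most 78 in each of the 8 other libraries. It was called higher in astrocytes by 1.96 ± 0.40 (adjusted p = 0.00752). Its opposite arm miR-126-5p, the other of the 2 endothelial miRNAs listed, was not called (0.62, adjusted p = 0.566). The summed value of the pair was 296 to 440 in astrocytes, 151 to 162 in oligodendrocytes and 66 to 117 in the other groups. None of 3 endothelial marker genes was on the study's gene panel, so the part of endothelial RNA in the miR-204 result was not tested.

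**Figure D3:**
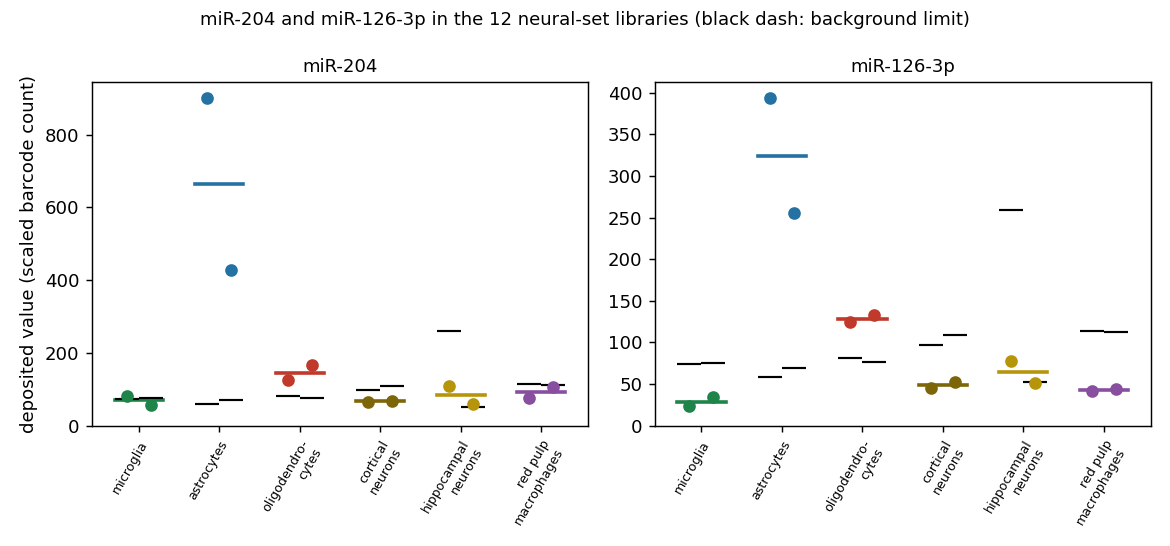
MiR-204 (left) and miR-126-3p (right) in the 12 neural-set libraries (deposited values, linear axis from 0; points are libraries, coloured lines means, black dashes background limits). In both, astrocytes 1 is the highest library, astrocytes 2 the second and the 2 oligodendrocyte libraries come next.

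MiR-211, which differs from miR-204 by a single base, did not show the astrocyte level. It read 40 and 57 in astrocytes, below the limits of 58.1 and 69.1, and 23 to 69 over all 12 libraries, in none of which it passed the limit. All 6 groups overlapped their neighbours in order, from 54.0 in cortical neurons to 35.0 in hippocampal neurons. Its astrocyte difference was 0.12 ± 0.40 (adjusted p = 0.905). The miR-211 probe thus stayed at 20 and 21 counts in the astrocyte libraries that held 453 and 158 counts of miR-204.

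Microglia of the neural set passed the limit for miR-338-3p in both libraries, at 1.15 and 1.37 times it. For miR-204 they passed in library 1 only (limit 74.2), and for miR-338-5p, miR-219 and miR-211 in neither library. MiR-204 read 82 and 56 there, against a mean of 239.9 over the 8 libraries of neural cells, a difference of -1.05 ± 0.43 that missed the threshold (adjusted p = 0.433). It passed without hippocampal neurons 1 (-0.94, adjusted p = 0.0435) and without hippocampal neurons 2 (-1.15, adjusted p = 0.00645). MiR-219 read 40 and 71, with a difference of -0.78 ± 0.49 (adjusted p = 0.983) that passed without hippocampal neurons 2 (-1.08, adjusted p = 0.0112). MiR-338-3p (85 and 103, difference -0.50), miR-338-5p (68 and 49, difference 0.12) and miR-211 (62 and 44, difference 0.20) were not called. So 0 of the 5 were called, against 11 of 566 miRNAs in this comparison (1.94% called, 39 with an unadjusted p under 0.05). The same 5 had 0 calls with edgeR.

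**Figure D4:**
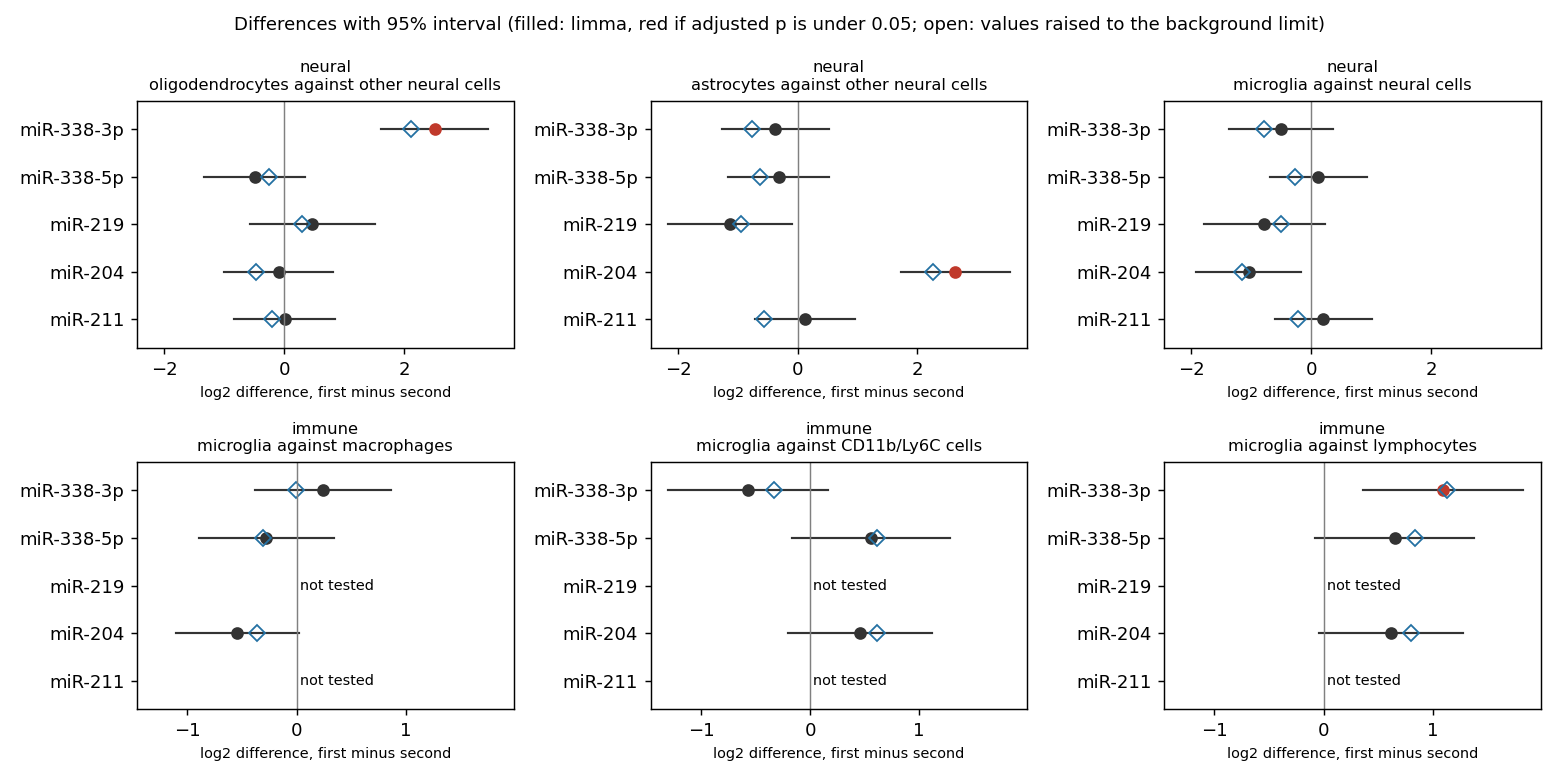
Log2 differences of the 5 miRNAs in each comparison (filled points with 95% intervals from limma, red where the adjusted p is under 0.05; open diamonds with values raised to the background limit). The horizontal axis is the first population minus the second, and the red points are miR-338-3p in oligodendrocytes (2.51), miR-204 in astrocytes (2.63) and miR-338-3p in microglia against lymphocytes (1.097).

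The other miRNAs listed for these cell types gave no further call in oligodendrocytes. Of 4 further miRNAs named for the oligodendrocyte lineage (miR-138, miR-23a, miR-32 and miR-7a), 0 were called in the oligodendrocyte comparison, with a median difference of -0.54 against -0.11 over all 566, and all 4 were below the limit in both oligodendrocyte libraries. Of 12 neuronal miRNAs 0 were called there (median -0.74), and miR-124, the most used neuronal marker, read a mean of 21.5 in oligodendrocytes against 121.3 in the other neural cells (-1.71 ± 0.65, adjusted p = 1.0). In the astrocyte comparison, miR-9 of the neuronal list, which is also made by neural progenitors and astrocytes, was called higher (1930 against 202.8, adjusted p = 0.00393), and 11 of 12 were not called. MiR-124 averaged 106 in astrocytes against 93.2 in the other neural cells (0.96 ± 0.65, adjusted p = 0.630). With miR-9, miR-124 and miR-132, 3 of the 12 neuronal miRNAs were above the limit in both astrocyte libraries, against 1 in each neuron type. The summed value of the list was 1708 to 3381 in astrocytes, 744 to 1060 in cortical neurons and 1131 to 2449 in hippocampal neurons, and its part in the miR-204 result was not tested. Of the 2 miRNAs listed for astrocytes, miR-143 and miR-449a, 0 were called there (median difference -0.57 against -0.33 over all 566), and their summed value was lowest in astrocytes, at 60 to 62 against 71 to 149 in the other 5 groups. Of 5 haematopoietic miRNAs 0 were called in either comparison. Yet 2 of them were above the limit in both astrocyte libraries and 1 in both oligodendrocyte libraries. Their summed value was 342 to 382 in astrocytes, 357 to 459 in oligodendrocytes, 519 to 953 in cortical neurons and 329 to 486 in hippocampal neurons. MiR-150 averaged 100 in astrocytes against 43.2 in the other neural cells (1.17 ± 0.42, limma adjusted p = 0.385). The part of haematopoietic RNA in the miR-204 result was not tested.

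The cell labels could be checked only in part. The study's separate nCounter panel of 400 genes, measured in its own samples of the same populations, held 0 of 11 oligodendrocyte markers, 1 of 7 astrocyte markers, 1 of 7 neuron markers and 0 of the host genes Aatk, Trpm3 and Trpm1. Slc1a3, a glutamate transporter of astrocytes, read 18602 and 14709 in astrocytes against 410 to 1449 in oligodendrocytes and neurons. Nefl, the neuron marker, read 243 and 346 in hippocampal neurons and 133 and 35 in cortical neurons, against 16 and 42 in astrocytes and 4 and 6 in oligodendrocytes, so that cortical neurons and astrocytes overlapped. Omg, a myelin glycoprotein gene, Tppp and Ptgds were picked after their values were seen. Omg read 1258 and 1475 in oligodendrocytes against 684 and 554 in astrocytes and 48 to 230 in neurons. Tppp read 1583 to 1699 in oligodendrocytes against 57 to 114 in astrocytes and 86 to 262 in neurons. Ptgds read 4070 to 4615 in oligodendrocytes against 50 to 55 in astrocytes and 3 to 17 in neurons. These genes were not all confined to oligodendrocytes over the whole panel. In the panel's immune-set microglia Ptgds reached 1991 (median 12.1), Tppp read 92.6 to 416 and Omg at most 103. Tppp read 615 in neutrophils. Ttr, the transthyretin gene and a defining marker of choroid plexus epithelium, read 1415 and 1524 in oligodendrocytes against 108 and 88 in astrocytes and at most 24 in the panel's neurons and neural-set microglia, and Kl, another choroid plexus gene, 198 and 202 in oligodendrocytes against at most 42 in those other samples. Both of the 2 choroid plexus genes listed were thus highest in oligodendrocytes among these 10 neural-set samples. In the miRNA libraries of the neural set, miR-204, known from that epithelium, was second highest in oligodendrocytes. Their part in the miR-204 value was not tested.

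In the immune set, miR-338-3p was the member most often above background and was highest in CD11b/Ly6C cells. Bone marrow CD11b/Ly6C low cells read 60.18 from 146 counts (limit 3.46), the highest of 24 libraries, and there miR-338-3p ranked 28 of 566. The other 3 populations read 27.87 (spleen, low), 26.91 (spleen, Hi) and 19.07 (bone marrow, Hi), from 27, 10 and 15 counts, and all 4 were above their limits.

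Microglia carried miR-338-3p above background too. The 2 deepest libraries read 20.99 in brain (48 counts, limit 2.38) and 23.59 in cortex (27 counts, limit 5.26), both well clear of background. Olfactory bulb (25.37), spinal cord (18.91) and hippocampus (11.99) also passed their limits, on 5, 5 and 8 counts, cerebellum read 21.39 under a limit of 28.8, and the eye read 6.97 from a single count. Macrophages ran from 3.73 to 51.19 (median 11.20) on 1 to 7 counts and passed the limit in 3 of 7 organs. Lymphocytes were low in deep libraries: NK cells read 8.16, CD4 T cells 2.89, B cells 0.97 and regulatory T cells 0.92, and only NK cells passed the limit.

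**Figure D5:**
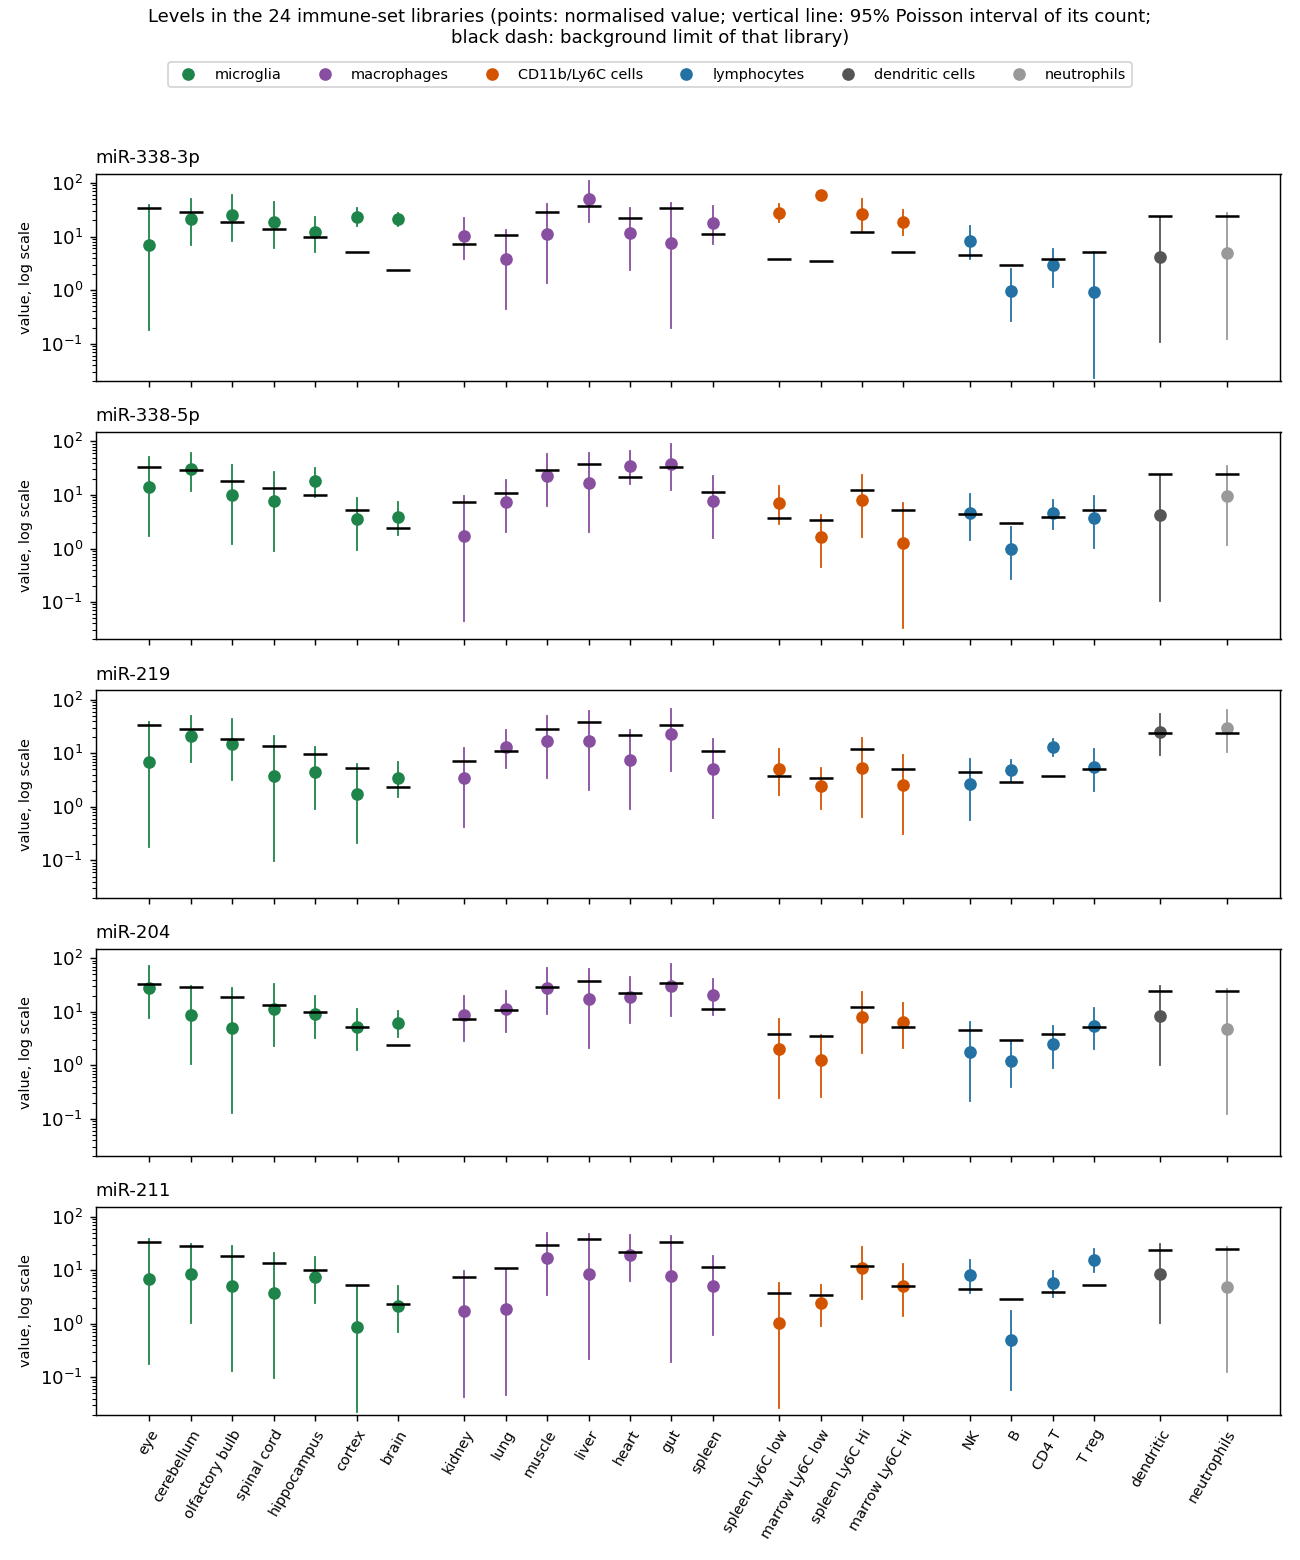
Normalised values (log axis) of the 5 miRNAs in the 24 immune-set libraries, microglia sites at the left. Points are libraries, vertical lines the 95% Poisson interval of the count behind each value (counting error only) and black dashes the background limits; miR-338-3p in the 4 CD11b/Ly6C populations and in cortex and brain microglia lies clear of the dashes, and most other points do not.

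Of the 5, 3 passed the filter for testing in this set (above 20 in at least 4 of 22 libraries), and miR-219 and miR-211 did not. MiR-338-3p passed with 8 libraries above 20, 7 of them above their background limit. MiR-204 passed with exactly 4, of which 3 (muscle and gut macrophages and eye microglia) were under their own limit, and miR-338-5p with 4, of which muscle macrophages were under theirs. Microglia exceeded lymphocytes in miR-338-3p by 1.097 ± 0.37 (means 18.5 and 3.24; 95% interval 0.36 to 1.83; limma adjusted p = 0.0237), in a comparison in which 22% of 132 miRNAs were called, 12.1% higher, and the median miRNA differed by 0.47. The groups overlapped, as the eye (6.97) lay under NK cells (8.16). With libraries under 5000 counts removed, which leaves hippocampus, cortex and brain microglia, the difference was 1.13 (adjusted p = 0.00948). The adjusted p rose past the threshold under quantile normalisation (0.70, adjusted p = 0.233), scaling to the 100 highest miRNAs (0.95, adjusted p = 0.0600), a pseudocount of 50 or no filter. The same happened without the B cell (1.02, adjusted p = 0.0927), CD4 T cell (1.095, adjusted p = 0.0649) or regulatory T cell library (1.02, adjusted p = 0.0772).

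Against CD11b/Ly6C cells, miR-338-3p in microglia differed by -0.57 ± 0.37 (means 18.5 and 33.5, adjusted p = 0.255; 15.2% of 132 called). EdgeR on the recovered counts gave -1.59 and passed the threshold (adjusted p = 0.0334). Bone marrow CD11b/Ly6C low cells weighed on the estimate, which was -0.31 without that library. Against macrophages the difference was 0.24 ± 0.31 (means 18.5 and 16.2, adjusted p = 0.572; 12.9% of 132 called). MiR-338-5p and miR-204 were not called against any of the 3 groups, with differences from -0.54 (miR-204 against macrophages) to 0.65 (miR-338-5p against lymphocytes). MiR-204 against lymphocytes passed with a pseudocount of 1 (1.52, adjusted p = 0.0484).

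The 5p arm of miR-338 again did not follow the 3p arm. In bone marrow CD11b/Ly6C low cells it rested on 4 counts (1.65, limit 3.46) beside 146 of the 3p arm, and in brain microglia on 9 (3.94, limit 2.38) beside 48. Its highest values, 38.38 in gut and 34.4 in heart macrophages, came from 5 and 9 counts. Over the 24 libraries the arms correlated at r = 0.05 and over the 12 neural libraries at r = -0.50, where most points of the 5p arm are background.

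MiR-219 in the immune set was clearest in lymphocytes, not in microglia. CD4 T cells read 13.23 from 32 counts (limit 3.86), B cells 4.87 from 20 counts (limit 2.95) and regulatory T cells 5.51 from 6 counts (limit 5.21), and NK cells were below their limit. Microglia ran from 1.75 to 21.39 (median 4.50) on 1 to 8 counts, and brain, at 3.50 with 8 counts, was the only site of 7 above its limit. Macrophages passed in 1 of 7 organs (lung, 13.05) and CD11b/Ly6C cells in 1 of 4 (spleen, low, 5.16). Dendritic cells (25.16) and neutrophils (29.2) passed theirs on 6 counts each.

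MiR-204 in microglia was measured best in brain, at 6.12 from 14 counts (limit 2.38), the only site above its limit. Cortex read 5.24 from 6 counts against a limit of 5.26, and the 7 sites ran from 5.07 to 27.87 (median 8.55). The highest, the eye, rested on 4 counts and lay under its limit of 33.6. Of the 4 retina miRNAs listed (miR-182, miR-183, miR-96 and miR-184), the eye library had a summed value of 97.57 against 3.06 to 35.51 in the other 6 sites, with miR-96 above the limit in the eye and miR-184 in the spinal cord (1 of 4 at each). On the gene panel, Ttr, which retinal pigment epithelium also makes, read 521 in eye microglia against 3.88 to 103 at the other sites; 0 of 7 retina and pigment genes were on that panel. The part of retinal RNA in the eye value was not tested. Macrophages had miR-204 at 8.60 to 30.7 (median 19.11) and passed in 3 of 7 organs, on at most 8 counts.

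MiR-211 passed the limit in 3 of the 24 libraries, all lymphocytes: regulatory T cells at 15.6 from 17 counts (limit 5.21), NK cells at 8.16 from 9 counts (limit 4.51) and CD4 T cells at 5.79 from 14 counts (limit 3.86). B cells, in the deepest library, read 0.49 from 2 counts. Microglia did not pass at any site (0.87 to 8.55, on 1 to 5 counts). MiR-204, its near twin, was at 5.51 in regulatory T cells and below the limit in the other 3 lymphocyte libraries, with 2 counts in NK cells and 6 in CD4 T cells.

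By likeness over the 12 neural libraries, miR-338-3p had no close companion: let-7a (r = 0.46), miR-876-5p (0.45) and miR-181a (0.39) came first. MiR-181a was second to it by p in the oligodendrocyte comparison (460.5 against 128, difference 2.15 ± 0.61, adjusted p = 0.540) without a call. MiR-219 went with miR-7b (r = 0.87), miR-668 (0.87) and miR-34a (0.85). All 3 of these were highest in the shallow hippocampal library and under its limit there. MiR-338-5p and miR-211 went with miR-34b-5p (0.87) and miR-1 (0.78). Over the immune libraries, miR-338-3p was nearest to miR-221 (0.58), miR-340-5p (0.55) and miR-135a (0.50), n = 24, again a weak likeness. Among themselves, miR-338-3p and miR-219 correlated at 0.25 over the neural libraries and at -0.24 over the immune libraries. All these correlations describe libraries that share depth and background, and carry no test.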

How the data were processed

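The miRNA table held 603 probes (566 mouse, 33 viral and 4 mRNA probes). In the immune set the authors deposited a normalised signal, in which each barcode count is multiplied by 1 factor per library: 100% of values were whole multiples of 1 step within 0.1 of a count. For the neural set they are deposited scores, scaled counts rounded to whole numbers (99.7% to 100% whole within rounding). How the factors were chosen, and whether background was subtracted, was not stated in any source consulted. Total RNA came from mirVana extractions, per the labels' protocols. The panel's deposited signal and scores were used for marker levels only, and the 6 arrays were not used here.

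The sets were scaled separately and tested separately: limma 3.58.1 (lmFit, eBayes with trend, R 4.3.3) on log2(value + 10), Benjamini-Hochberg, calls at 0.05. A miRNA was tested if above 20 in at least 2 of 12 neural libraries (566) or 4 of 22 immune libraries of groups with replicates (132). The oligodendrocyte and astrocyte comparisons each set 1 group against the unweighted mean of the other neural groups, without microglia and red pulp macrophages. EdgeR 4.0.16 (quasi-likelihood) ran on recovered counts as an alternative, and called 25 of 132 miRNAs against CD11b/Ly6C cells where limma called 20. On simulated data, 19 of 20 miRNAs changed 8-fold were called in the oligodendrocyte comparison (566 tested, 1 unchanged called) and 20 of 20 in the macrophage comparison (111 tested). The changed miRNAs were drawn from the most abundant ones tested, with the same spread set for every library. This recovery therefore does not cover miRNAs near background or pairs of libraries as unlike as the hippocampal neurons. Alternatives were other pseudocounts, filters and scalings, shallow libraries left out, single libraries left out, a replicate block and values raised to the limit.

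Named miRNAs were the 5 members, the 3 most alike per member and set, and members of fixed lists. Likeness was Pearson's r over candidates above background in at least 2 libraries. MiR-181a and the genes Omg, Tppp and Ptgds were added after values were seen. The members and lists were chosen with earlier results of these data known. Poisson intervals (95%) cover counting error only, while the background limits also hold the differences between the viral probes. Chi-square tests found a difference within each of the 6 neural pairs (lowest 1.13 per degree of freedom, red pulp macrophages, p = 0.0146), so no pair was merged.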

Additional observations from a re-analysis of the deposited data

Results flagged for a closer look

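In liver macrophages miR-338-3p was 51.19, far from the other 6 macrophage libraries (3.73 to 18.0); the value rests on 6 counts in the shallowest library of the study (1741 counts) against a limit of 38.0. In eye microglia miR-204 was 27.87, far from the other 6 sites (5.07 to 11.35), on 4 counts and under the limit of 33.6. Such a gap was looked for in 20 combinations of a miRNA and a group, and about 1 in 20 is marked when nothing differs. MiR-219 was above the limit in the 2 single libraries that enter no comparison, at 25.16 in dendritic cells (limit 24.3) and 29.2 in neutrophils (limit 24.5), on 6 counts each; neither has a repeat.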

How the results depend on the processing

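MiR-338-3p in oligodendrocytes and miR-204 in astrocytes kept their direction under every alternative run, at 2.09 to 2.74 and 2.10 to 3.38. Among the alternatives with a test, their calls were lost without either oligodendrocyte library and without astrocytes 1 (ranges with 1 library left out 2.35 to 2.67 and 2.10 to 3.16). Raising values to the limit gave 2.12 for miR-338-3p in oligodendrocytes and, in astrocytes, -0.76 for miR-338-3p and -0.57 for miR-211; in microglia against neural cells it gave -0.26 for miR-338-5p and -0.22 for miR-211. Signs that turned belonged to uncalled differences. In oligodendrocytes these included miR-204 (0.37 quantile, 0.057 edgeR, 0.043 without libraries under 5000 counts) and miR-211 (-0.0076 with a pseudocount of 50). In astrocytes they included miR-338-3p (-0.37 as reported, 0.088 edgeR) and miR-338-5p (-0.32 as reported, 0.12 quantile, 0.082 edgeR). With 1 library left out, miR-211 in astrocytes also turned, as did miR-211 and miR-338-5p in microglia against neural cells. Without libraries under 5000 counts miR-204 in microglia against neural cells was called (-0.94). In the neural set only hippocampal neurons 1 had under 5000 counts, so this alternative is the same fit as leaving out that library. Against CD11b/Ly6C cells edgeR called miR-338-3p (-1.59) and a pseudocount of 1 called miR-204 against lymphocytes (1.52), while miR-338-3p against lymphocytes lost its call with a pseudocount of 50 (0.36), no filter (1.097), the 100 highest miRNAs (0.95) and quantile normalisation (0.70). The causes were not tested.

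Leaving out each library in turn gave, for oligodendrocytes, -0.62 to -0.37 for miR-338-5p, 0.076 to 0.86 for miR-219, -0.29 to 0.099 for miR-204 and -0.13 to 0.14 for miR-211. For astrocytes it gave -0.53 to -0.22 for miR-338-3p, -0.66 to 0.018 for miR-338-5p, -1.52 to -0.74 for miR-219 and -0.090 to 0.33 for miR-211. For microglia against neural cells it gave -0.63 to -0.38 for miR-338-3p, -0.086 to 0.32 for miR-338-5p, -1.13 to -0.43 for miR-219, -1.28 to -0.81 for miR-204 and -0.0090 to 0.41 for miR-211. In the immune set, miR-338-3p ranged from 1.02 to 1.26 against lymphocytes and from -0.74 to -0.31 against CD11b/Ly6C cells.

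Counts of calls moved more. Leaving out 1 library gave 0 to 20 for oligodendrocytes (20 without hippocampal neurons 2, 7 without hippocampal neurons 1), 0 to 183 for astrocytes (183 without hippocampal neurons 2, 0 without astrocytes 1) and 1 to 48 for microglia against neural cells. It gave 8 to 23 against macrophages, 11 to 27 against CD11b/Ly6C cells and 13 to 46 against lymphocytes. A minimum of 100 gave 2 calls for oligodendrocytes and 10, 12 and 12 in the immune comparisons; no filter gave 9, 12 and 16 there. Without libraries under 5000 counts there were 7, 18 and 31 neural calls and 14 against lymphocytes. EdgeR gave 14 for astrocytes (13 higher, 1 lower) and 17 for microglia against neural cells, and a pseudocount of 50 gave 5 for astrocytes. Against lymphocytes there were 47 calls with a pseudocount of 1 (33 higher), 19 with 50 and 13 with quantile normalisation (4 higher, 9 lower, against 16 and 13 as reported). Scaling to the 100 highest gave 8 higher and 16 lower there, and in microglia against neural cells 11 higher and 3 lower (10 and 1 as reported). Quantile normalisation gave 8 higher and 0 lower in astrocytes (7 and 2), 11 and 3 against macrophages (10 and 7) and 4 and 10 against CD11b/Ly6C cells (8 and 12), where edgeR gave 4 and 21. It moved the median of all miRNAs to -0.042 in astrocytes (-0.33 as reported), -0.0041 in oligodendrocytes (-0.11), -0.0099 against macrophages (-0.25), 0.21 against CD11b/Ly6C cells (0.46) and 0.17 against lymphocytes (0.47).

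No pairing of the neural libraries by replicate number was seen: deviations of same-numbered libraries correlated at -0.25 to 0.08 over 15 pairs of groups. Most mouse miRNAs lay under the limit in each neural library, so a pairing may not show in such correlations. With a replicate block, miR-338-3p in oligodendrocytes stayed at 2.51 (adjusted p = 0.00803), miR-204 in astrocytes at 2.63 (adjusted p = 0.00712), and astrocyte calls fell to 6, against 9 as reported.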
